A study of Drosophila melanogaster with 3 samples.

Results

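The Snail family genes escargot (esg), snail (sna) and worniu (wor) of Drosophila melanogaster were examined for binding of Jarid2-GFP in embryos. The 3 genes were chosen by name out of 13945 protein-coding genes, with earlier results of these data known. They lie as neighbours on chromosome 2L. Chromatin immunoprecipitation with sequencing (ChIP-seq) had been done on whole embryos of mixed sex, 0 to 24 h old, from a transgenic line that stably expresses Jarid2 with green fluorescent protein (GFP) fused to its C terminus. An antibody against GFP was used, and the series has 1 group of 3 biological replicates, all of this line. The promoter that drives the fusion is not stated in the labels, and embryos of all stages and tissues were mixed, so no signal can be assigned to a cell type. The peak lists hold no RNA level, so the labelled tissue could not be checked against markers.

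Snail family proteins are zinc-finger repressors that bind E-box sequences. In the fly embryo, sna specifies the mesoderm and represses genes of the neighbouring ectoderm, wor acts in neuroblasts together with the other two, and esg keeps imaginal cells diploid and marks progenitor cells, including those of the gut. Jarid2 is a DNA-binding protein that associates with Polycomb repressive complex 2, which methylates histone H3 and maintains silencing at developmental genes.

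All positions are on the dm6 build, and genes are those of Ensembl BDGP6. The gene esg (FBgn0287768) lies on the plus strand at chr2L:15333866-15336138 and has 1 exon. The gene wor (FBgn0001983) lies on the minus strand at chr2L:15423297-15425580 with 2 exons, and sna (FBgn0003448) on the minus strand at chr2L:15476593-15478260 with 1 exon. Each gene has 1 annotated start. The start of wor lies 91.7 kb from that of esg, and the start of sna lies 52.7 kb beyond that of wor. With 10 kb added at each end, the locus is 164.4 kb long (chr2L:15323866-15488260).

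The sequences on which the results turn are the 3 promoters and the 2 strongest sites outside a transcript. Each promoter is shown from 250 bases before the start to 30 bases after it, on the strand of the gene. They lie at chr2L:15333616-15333895 (plus strand, esg), chr2L:15478231-15478510 (minus strand, sna) and chr2L:15425551-15425830 (minus strand, wor), and all sequences are from the Release 6 reference genome of RefSeq. Capitals mark every match, on either strand, to 1 of 7 motifs: GAGAG, recognised by the GAGA factor, GCCAT, the core of the site of the Polycomb group protein Pleiohomeotic, the E-box CAGGTG bound by Snail, the site CAGGTAG of the early activator Zelda, the further E-box CACGTG, the repeat GTGTGT and the run TTTTTTTT.
esg promoter: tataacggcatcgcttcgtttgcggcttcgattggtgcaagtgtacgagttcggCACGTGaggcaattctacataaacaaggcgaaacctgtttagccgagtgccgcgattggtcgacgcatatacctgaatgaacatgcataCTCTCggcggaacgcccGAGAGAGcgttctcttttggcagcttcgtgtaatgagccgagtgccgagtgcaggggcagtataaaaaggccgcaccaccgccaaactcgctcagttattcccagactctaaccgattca
sna promoter: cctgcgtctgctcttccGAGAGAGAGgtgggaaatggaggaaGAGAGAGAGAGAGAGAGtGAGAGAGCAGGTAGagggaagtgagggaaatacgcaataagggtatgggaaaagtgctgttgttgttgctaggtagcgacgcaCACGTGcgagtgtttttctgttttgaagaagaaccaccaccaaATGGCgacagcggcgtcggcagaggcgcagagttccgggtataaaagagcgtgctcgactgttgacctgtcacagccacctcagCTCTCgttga
wor promoter: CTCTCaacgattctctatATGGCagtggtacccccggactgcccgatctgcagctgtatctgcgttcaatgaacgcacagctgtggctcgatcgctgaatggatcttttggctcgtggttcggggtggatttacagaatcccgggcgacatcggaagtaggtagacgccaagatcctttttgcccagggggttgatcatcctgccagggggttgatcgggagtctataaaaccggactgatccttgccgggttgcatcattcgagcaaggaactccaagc
The other sequences are 300 bases around summits. The first lies downstream of esg (chr2L:15339653-15339952, plus strand), and the second lies upstream of wor (chr2L:15425826-15426125, minus strand), where it meets the far end of the wor promoter shown above.
esg downstream summit: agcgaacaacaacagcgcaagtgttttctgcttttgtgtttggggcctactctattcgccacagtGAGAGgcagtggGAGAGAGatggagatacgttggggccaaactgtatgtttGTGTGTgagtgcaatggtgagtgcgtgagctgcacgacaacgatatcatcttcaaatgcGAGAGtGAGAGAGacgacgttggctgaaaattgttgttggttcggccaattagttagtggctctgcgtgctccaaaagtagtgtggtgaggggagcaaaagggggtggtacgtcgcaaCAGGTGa
wor upstream summit: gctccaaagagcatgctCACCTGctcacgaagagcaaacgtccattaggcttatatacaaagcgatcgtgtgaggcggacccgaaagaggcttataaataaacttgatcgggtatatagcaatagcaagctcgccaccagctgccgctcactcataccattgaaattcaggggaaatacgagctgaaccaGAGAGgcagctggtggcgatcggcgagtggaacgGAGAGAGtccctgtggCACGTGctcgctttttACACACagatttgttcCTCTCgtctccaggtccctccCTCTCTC

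Matches were counted on both strands, with overlapping matches counted separately. The sna promoter held 13 matches to GAGAG, and 0.249% of 19253 promoters of protein-coding genes held as many in the same window. The esg promoter held 3 (7.75% of promoters held as many) and the wor promoter held 1 (31.6%). In sna all but 1 of the matches lay in runs near the upstream end of the window, and the match of wor lay at the upstream edge. CACGTG was present in the promoters of esg and sna, against 3.29% of all promoters, CAGGTAG in that of sna (1.62%), and GCCAT in those of sna and wor (39.2%). The Snail E-box CAGGTG was in 0 of the 3 promoter windows, against 9.04% of all promoters, as was the repeat GTGTGT (16.6%) and the run TTTTTTTT (15.2%). TATAA lay 30, 25 and 26 bases upstream of the starts of esg, sna and wor, and 8.5% of all promoters held it between 35 and 20 bases upstream on the strand of the gene. The initiator-like letters TCAGT lay on the strand of the gene in the window of esg, near the start, and in 35.4% of all promoters. In the window of wor they lay only on the other strand, and 49.8% of all promoters held them on either strand. Both searches were chosen after the sequences had been seen, and all matches are descriptions of letters. The GC content of the promoter windows was 52.5% for esg, 53.2% for sna and 54.3% for wor, against a median of 38.9% over all promoters.

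At the promoters, esg carried the strongest summit of the family, sna a weaker one, and wor a summit near the threshold. The authors' signal value for each peak was used for ranks within a list, with rank 1 the strongest. The irreproducible discovery rate (IDR), which scores how well peaks recur between replicates, had been used by the authors to select 5464 peaks. They were the strongest of the pooled replicates and are called reproducible here. Each replicate and the pool also had a permissive list of 30000 peaks, which reaches down to weak regions. The authors label the pooled one as peaks and background, so its weak summits need not be sites of binding. Of the 3 genes, 2 had a reproducible summit within 1 kb of the start, against 25.5% of protein-coding genes.

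The promoter summit of esg ranked 125, 97 and 178 in replicates 1, 2 and 3, and 121 in the pool. It was among the strongest in every replicate: 0.939%, 0.753% and 1.35% of protein-coding genes had a stronger promoter summit there. The reproducible interval (chr2L:15333682-15334116) was 435 bp wide, and its summit lay 54 bp downstream of the start, in the 5' UTR. In the replicates the summit lay 54, 36 and 55 bp downstream, so its position was nearly the same in each. The pool had 1 further summit within 1 kb, of rank 21446 and 253 bp downstream.

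The promoter summit of sna ranked 1160, 1002 and 1579 in the 3 replicates and 1178 in the pool. Between 7.34% and 10.8% of protein-coding genes had a stronger promoter summit in a replicate, so sna lay well behind esg and still in the upper part of the lists. The median rank over the 3556 genes with a reproducible promoter summit was 1957.5. The reproducible interval of sna (chr2L:15478104-15478320) was 217 bp wide, against a median of 450 bp over the list. In replicates 1, 2 and 3 it was 107, 440 and 424 bp wide, against list medians of 424, 440 and 424 bp. The narrow interval was thus not seen in replicates 2 and 3. Its summit lay 51 bp downstream of the start, in the 5' UTR, and the replicate summits lay 52, 68 and 82 bp downstream.

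The gene wor had no reproducible promoter summit. Its strongest summit within 1 kb ranked 5746, 6101 and 3731 in the 3 replicates and 5930 in the pool, where its signal was 0.934 of that of the last reproducible peak. Only in replicate 3 was it among the 5464 strongest. Each gene of the family had a promoter summit in all of the permissive lists, against 52.3%, 46.0% and 53.0% of protein-coding genes in replicates 1, 2 and 3 and 46.2% in the pool. Among the 5464 strongest peaks of a replicate, 2, 2 and 3 of the 3 genes had one, against 27.2%, 24.5% and 26.5% of protein-coding genes. The wor summit was intergenic and lay on the other side of the start from those of esg and sna: 376, 428 and 208 bp upstream in the replicates and 395 bp upstream in the pool.

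The order esg, sna, wor was the same in each replicate, and the ranges of rank did not overlap (97 to 178 for esg, 1002 to 1579 for sna, 3731 to 6101 for wor). Relative to the weakest of the 5464 strongest peaks in the same replicate, the signal was 8.75 ± 1.04 times as high at esg, 3.11 ± 0.496 times at sna and 1.08 ± 0.238 times at wor (mean ± SD, n = 3). With 3 replicates, a two-sided exact paired permutation test cannot go below p = 0.25, so none was run. The signal scale is that of the authors' caller and need not be proportional to occupancy.

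**Figure D1:**
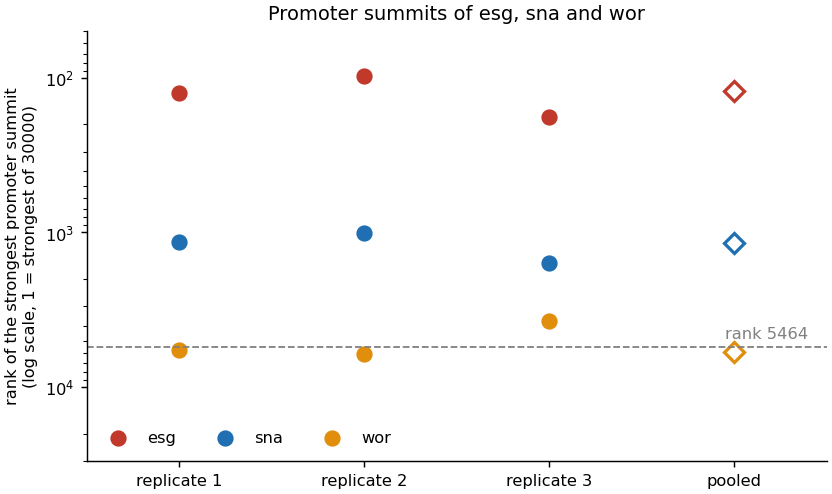
Rank of the strongest summit within 1 kb of the start (y axis, log scale, stronger ranks higher up) for esg, sna and wor in each replicate (filled circles) and in the pooled list (open diamonds). The dashed line marks rank 5464, below which only wor fell, in replicates 1 and 2 and in the pool.

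Genes whose promoter ranks were nearest to those of each member were sought by the Euclidean distance of log10 rank over the 3 replicates, among 5127 other genes with a promoter summit in all 3. For esg these were CG13893 (ranks 134, 92 and 167 in replicates 1, 2 and 3), spin and tutl. For sna they were Cad74A (1129, 1031 and 1635), CG9135 and Ak1. For wor they were CG17597 and ScpX, which share 1 summit (5557, 5923 and 3901), and S6KL. The likeness is one of rank over 3 values.

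Across the locus, 3 reproducible summits were found: the promoter summits of esg and sna, and another one downstream of esg. The downstream summit (rank 3060, interval chr2L:15339577-15340026) lay 5936 bp from the esg start and 3664 bp beyond the end of the gene, and was intergenic. Its ranks were 4303, 2721 and 3149 in the 3 replicates, so it was among the 5464 strongest peaks of each. No annotated start was nearer to it than that of esg. Over the whole genome, 449 reproducible summits were intergenic and more than 1 kb from any start, and 168 of these were stronger. The median rank of the 449 was 3556, and 55.2% of them were held by all 3 replicates.

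A summit was counted as held by a replicate when one of the replicate's 5464 strongest lay within 200 bp. All 3 replicates held the 3 reproducible summits of the locus, against 68.2% of all reproducible summits. The reproducible list was made from these replicates, so this support is a description. The 68.2% includes summits close to the threshold, and the part of rank in the difference was not tested. Around each of the 3 summits (150 bp to each side), GAGAG was present, against 47.5% of all reproducible summits, and so was GTGTGT (30.3%). The downstream summit also had CAGGTG (8.77% of all) and the sna summit had GCCAT (38.9%). The Zelda site CAGGTAG was at 0 of the 3 (1.54% of all), as was CACGTG (3.79%) and the run TTTTTTTT (16.9%). In the 300 bases shown above, the esg downstream summit and the wor upstream summit each held 6 matches to GAGAG, and 4.17% of reproducible summits held as many.

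In the pool, weak summits were denser in the locus than on chromosome 2L and reproducible ones sparser. By its label the pooled list includes background, and whether the weak summits are sites of binding was not tested. The permissive lists placed 95, 89 and 82 summits in it for replicates 1, 2 and 3 (mean 88.7 ± 6.51, SD, n = 3), and 95 for the pool. The pooled summits came to 57.8 per 100 kb, against 26.1 on the whole of chromosome 2L, a ratio of 2.22. The reproducible summits came to 1.82 per 100 kb, against 4.47 on chromosome 2L. Peaks of the pooled list covered 24% of the locus with a mean of 416 bp per summit, and reproducible peaks covered 0.67%.

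The pooled summits were also divided by rank, where those up to rank 5464 are the reproducible ones again. Of the 95 pooled summits, 3 ranked up to 5464, 15 ranked from 5465 to 10000, 45 from 10001 to 20000 and 32 from 20001 to 30000. In relation to chromosome 2L, these were 0.408, 2.41, 3.10 and 2.16 times the density of the same ranks. For ranks up to 5464 the replicates had 3, 4 and 5 summits, with ratios of 0.41, 0.549 and 0.685, and 30.7%, 38.7% and 43.3% of windows of the length of the locus held as few. The low count of strong summits was thus common among windows. For ranks 5465 to 10000 the replicates were uneven, with 12, 19 and 6 summits and ratios of 1.88, 2.82 and 0.949. For the weakest ranks, 20001 to 30000, the ratios were 3.19, 2.31 and 2.42 in replicates 1, 2 and 3.

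When the 6 main chromosome arms were divided into 812 windows of the length of the locus, 28 windows (3.45%) held 95 or more pooled summits. The locus had 3 reproducible summits, and these 28 windows had 5 to 23, with a median of 12. In the pool, 0 of the 812 windows held at least as many summits and at most as many reproducible ones as the locus, and likewise 0 of 808 windows laid between these. With the summits and the 5464 strongest of replicates 1, 2 and 3 in their place, 0, 0 and 1 of the 812 windows did, and 0, 1 and 2 of the 808. The combination was therefore not particular to the locus in replicates 2 and 3. This comparison was chosen after the counts had been seen and has no test. The windows include 103 without any pooled summit. In the other 709 the median was 36 pooled and 7 reproducible summits, 3.95% held 95 or more pooled ones and 21.3% held 3 or fewer reproducible ones.

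The locus also had few genes, with 7 protein-coding genes starting in it, against a median of 16 per window. Among the 75 windows with a pooled summit and no more than 7 such genes, the median was 42 pooled and 4 reproducible summits, and 7 windows (9.33%) held 95 or more pooled summits. The part of gene density in the counts of the locus was not tested. Its GC content was 41.8%, the same as that of chromosome 2L.

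**Figure D2:**
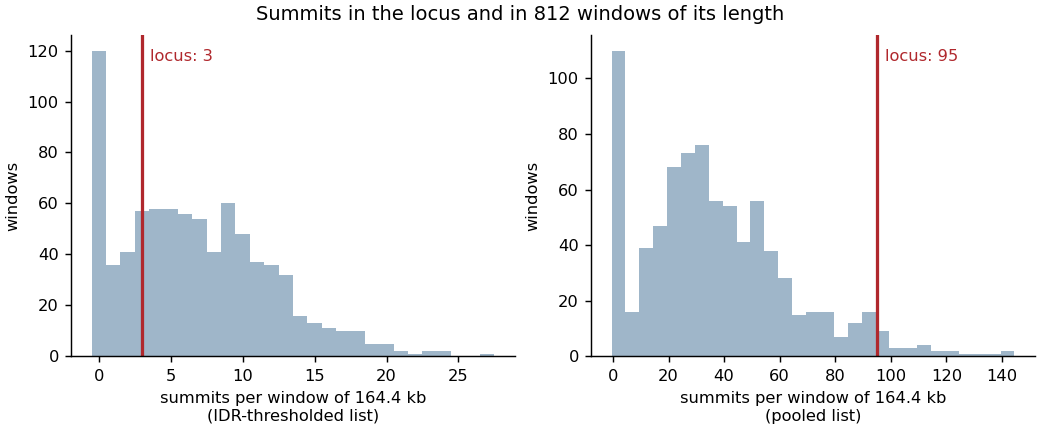
Distribution of the number of summits per window of 164.4 kb (x axis) over 812 windows of the 6 main arms (y axis, number of windows), for the IDR-thresholded list on the left and the pooled list on the right. Red lines mark the locus, which had 3 summits of the first list and 95 of the second.

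Of the 95 pooled summits of the locus, 84 (88.4%) were intergenic, and intergenic bases made up 86.6% of the locus. Over the 6 arms, 31.9% of pooled summits were intergenic, and 27.5% of bases were. Per 100 kb of intergenic sequence there were 59 pooled intergenic summits in the locus, against 31.5 on chromosome 2L. Of the other summits of the locus, 5 lay in non-coding RNA exons, 3 in coding exons, 2 in a 5' UTR and 1 in a 3' UTR. Of the 92 that were not reproducible, 30 (32.6%) had a partner within 200 bp in all 3 permissive replicate lists, against 28.5% of 24536 such summits over the 6 arms. All 92 had a partner in at least 1 replicate, and 3.64% of those over the arms had none. A replicate peak could be the partner of more than 1 pooled summit. The pooled summits of ranks 21723, 22630, 27338, 17144 and 9941 had as only partner a peak also matched to a neighbour. That of rank 21446 was matched to the esg promoter peaks of replicates 1 and 3 (ranks 125 and 178). How far such sharing raised the shares in the locus, where summits were dense, was not tested. The permissive and pooled lists come from the same reads, so these shares describe repeatability within the series.

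**Figure D3:**
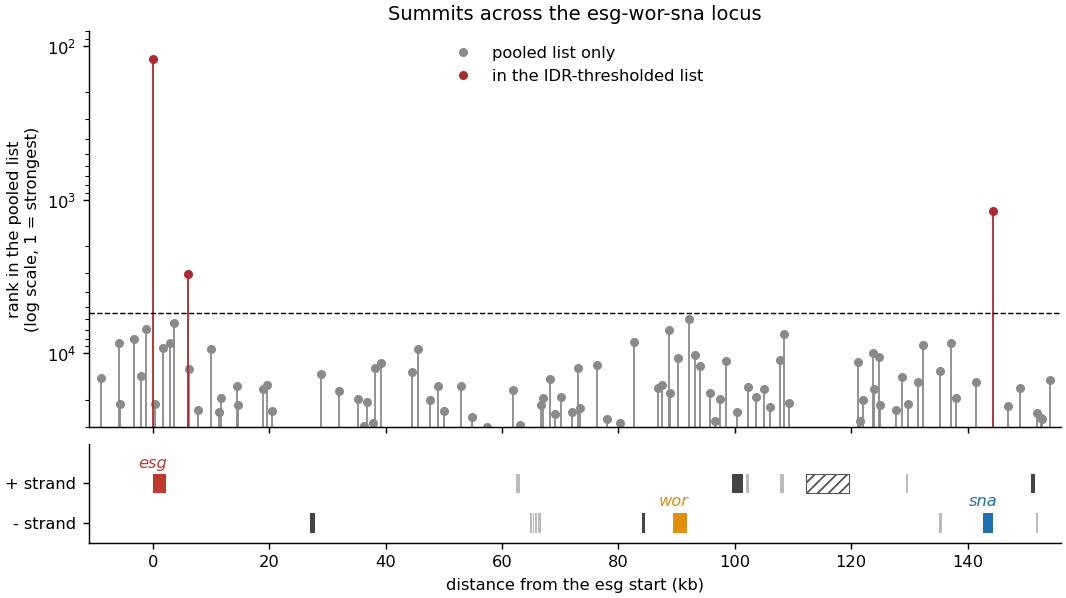
Upper panel, rank in the pooled list (y axis, log scale, stronger ranks higher up) of each summit against its distance from the esg start in kb (x axis), with the 3 reproducible summits in red and the dashed line at rank 5464. Lower panel, genes by strand, with the family in colour, other protein-coding genes in dark grey, non-coding genes in light grey and a transposon hatched. The tall lines stand at both ends of the locus, at esg and at sna.

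Around the 3 starts, the neighbourhood of esg held more summits than that of wor or sna in each replicate. Within 10 kb of the esg start there were 18, 17 and 15 summits in replicates 1, 2 and 3, against a median of 4 over protein-coding genes in each. Within 10 kb of wor there were 14, 11 and 12, and within 10 kb of sna 10, 12 and 12. All 9 of these counts were above the median gene. In the pooled list the counts were 15, 14 and 11 for esg, wor and sna, and 2.87%, 3.71% and 9.28% of protein-coding genes had as many.

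Among the 10000 strongest peaks of the pool, esg had 9 summits within 10 kb, a count reached by 0.767% of protein-coding genes. The replicates gave 4, 10 and 6 for esg, reached by 19.4%, 0.452% and 5.47% of genes, so replicate 1 was the least marked. For wor the pooled count was 3 (31% of genes had as many) and for sna it was 2 (47.2%). Of the pooled summits near esg, the ones after its reproducible pair were 3.60 kb downstream of the start (rank 6321) and 1.24 kb upstream (rank 6955). Near wor, the next after the promoter summit lay 3.06 kb downstream of the start (rank 7036). The 71.7 kb between the esg and wor neighbourhoods held 36 pooled summits, of which 1 was among the 10000 strongest. The 32.7 kb between wor and sna held 19, of which 3 were.

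**Figure D4:**
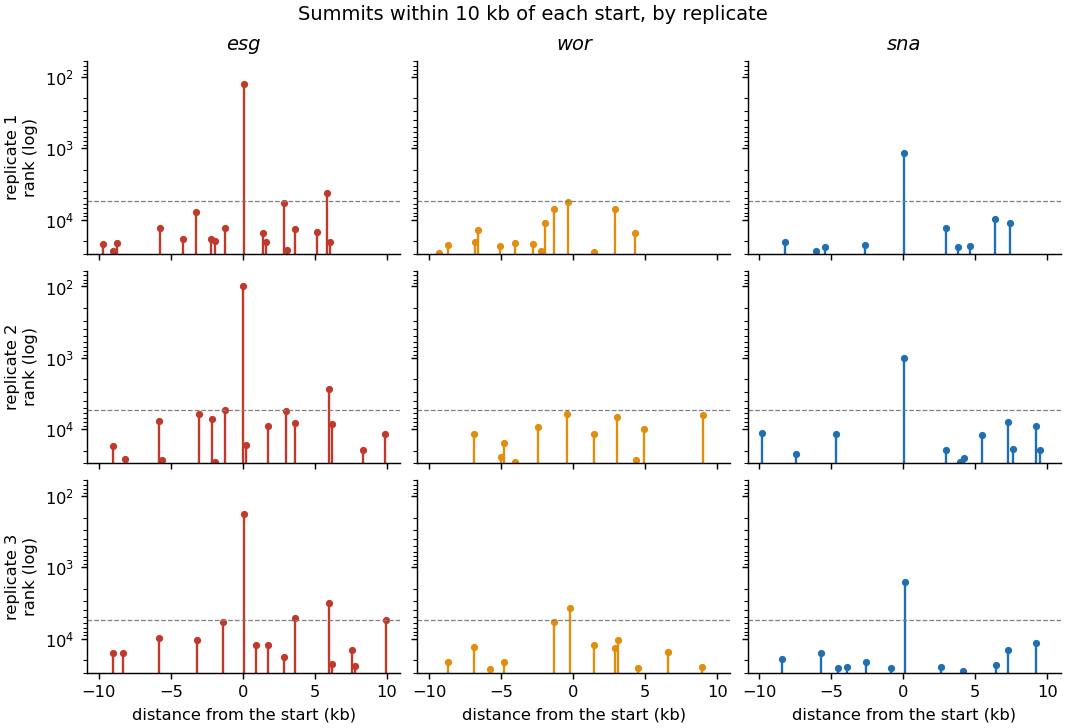
Summits within 10 kb of the starts of esg, wor and sna (columns) in replicates 1, 2 and 3 (rows), by distance from the start in kb along the gene (x axis) and rank (y axis, log scale, stronger ranks higher up), with a dashed line at rank 5464. The esg and sna panels each have a tall line at the start in all 3 replicates, and the downstream summit of esg (5.94 kb from its start in the pool) recurs in each.

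The other protein-coding genes of the locus had no reproducible promoter summit. In the pooled list CG4161 had one of rank 11137 and Tim17b2 one of rank 24611, while CG15258 and CG44869 had none. For the non-coding gene lncRNA:CR44862 the strongest pooled summit within 1 kb of the start ranked 7429. It was intergenic, past the end of the gene, and its partners ranked 10955, 7210 and 7663 in replicates 1, 2 and 3. Another pooled summit, in the exon of this gene, ranked 11120. Its partners ranked 7287 and 25794 in replicates 1 and 2, and replicate 3 had none. These genes were named because they lie in the locus.

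Relatives of the Snail family and genes that act upstream of it, with it or under it were taken as 5 lists. Of these, 26 of 31 genes had a reproducible promoter summit, against 25.5% of protein-coding genes. Their median pooled rank was 1919, against 4586 over all genes with a pooled promoter summit. The lists consist largely of well-known developmental genes and were chosen by name, with earlier results of these data known, so the counts are descriptions.

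Of 8 genes that Snail represses in the mesoderm, 7 had a reproducible promoter summit. The strongest was at rho (rank 15), which activates ligands of the epidermal growth factor receptor, followed by shg (270), which encodes E-cadherin, crb (335), an apical polarity gene, and sog (336), an inhibitor of Dpp signalling. Only rho among these 8 ranked above esg. The gene vnd, a neural patterning factor, had a pooled summit of rank 6094 and no reproducible one.

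Of 6 dorsal-ventral and maternal regulators, 5 had one: Tl (rank 108), the receptor upstream of Dorsal, dl (571), which encodes Dorsal, cact (1019), its inhibitor, and twi (3304), the mesodermal activator that acts with Dorsal on sna, were the strongest. No promoter summit was found for da in any list. Of 6 genes listed for corepression, 5 had one, with HDAC1 (797), gro (1107), Sin3A (2044) and ebi (2693) the strongest. Su(H) had no reproducible one (pooled rank 6606), with ranks 4442, 4761 and 9682 in replicates 1, 2 and 3. For ebi the ranks were 2580 and 2042 in replicates 1 and 3, and replicate 2 had no promoter summit. CtBP, a corepressor that Snail binds, ranked 4145.

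Of 8 neuroblast genes, 7 had one, and the strongest were pros (rank 81), a differentiation factor handed to the daughter cell, brat (505), which restrains growth of that cell, grh (807), a temporal factor, and insc (816), which orients the spindle. The proneural gene ase had a pooled summit of rank 13680 and no reproducible one. Of 3 relatives in the Snail superfamily, Kah (2234) and scrt (3081) had a reproducible promoter summit and CG12605 had none (pooled rank 28133).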

How the data were processed

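Peak lists of ChIP-seq on 3 biological replicates, with replicate numbers from the labels and fragments sonicated to 200 to 800 bp, were used on build dm6. Per the deposited file notes, each permissive list was called from the alignment of a replicate or of the pool, set against that of a control. The IDR-thresholded list was derived from these. It was identical to the 5464 strongest pooled peaks. Each peak carries the authors' signal value, whose scale differs between lists, and the deposited signal served for ranks within a list and for ratios within a list. The aligner and peak caller are not given in the sources used here. The lists hold no read counts, so depth is unknown and no counting interval is given. A control immunoprecipitation without GFP was not analysed here, and lists on the older build dm3 were not used.

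Summits were assigned to genes of BDGP6.54 (Ensembl release 115) within 1 kb of a start, and matched between lists within 200 bp. Sequences came from the genome of the same build. Python 3.11.15, pandas 2.3.3, numpy 2.4.6 and matplotlib 3.10.9 were used, and scripts were tested on simulated data. With 1 group, there was no test between conditions, and spreads are between biological replicates. Around the esg, sna and wor summits (225 bp to each side), 0 of the 50-base sequences recurred in the genome.

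The members and gene lists were chosen with earlier results of these data known. Named genes were the members, the 3 nearest to each by rank, and from each list up to 4 with the strongest promoter summits and up to 2 without. CtBP, the other genes of the locus, the searches for TATAA and TCAGT, the counts of GAGAG matches, the comparison of windows, the transposon and the 2 other loci were chosen after the data had been seen. One listed name was an older name of Kah and was counted once. Alternatives tried were other distances, flanks, thresholds, numbers of peaks, motif windows and replicates left out.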

Additional observations from a re-analysis of the deposited data

How the results depend on the processing

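Of 49 alternatives, 42 left the value within the limits set for it. The mean number of summits in the locus over replicates was 4 with the 5464 strongest peaks, 16.3 with the 10000 strongest and 88.7 with all 30000, as more peaks were admitted. With the 5464 strongest peaks it ranged from 3.5 to 4.5 when 1 replicate was left out. The number of reproducible summits was 3 each time. That list was made by the authors from all 3 replicates, so leaving 1 out cannot test it. These settings are counted among the 42. So are the ranks of esg and sna in the IDR-thresholded list, which must equal their pooled ranks. With only the stronger part of that list kept, the locus had 2 reproducible summits, and this too was counted among the 42. With 100 bp to each side of the summits, GCCAT and CAGGTG were each at 0 of the 3 reproducible summits, against 1 each at 150 bp. With 300 bp, CAGGTAG was at 1 and CACGTG at 2, against 0 each at 150 bp, as wider windows hold more letters. The wor promoter has no rank in the IDR-thresholded list. Flanks of 0 and 20 kb, replicate support of pooled summits, the shifted windows and the windows by replicate were added after the data had been seen. The number of windows with as many summits and as few strong ones as the locus was 0 in the pool and 1 in replicate 3, and the cause was not tested. With flanks of 0 and 20 kb the pooled density was 57.5 and 59.1 per 100 kb. With 1 group there was no pairing between groups. The 3 genes were measured in the same replicates, and no paired test between them was run, since 3 pairs cannot give p below 0.25 in an exact permutation test. Unknown depth limits any statement about sites without a summit.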

Other observations

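A copy of the blood retrotransposon (chr2L:15446106-15453517, 7.41 kb) lies between wor and sna and had 0 summits in each of the 5 lists. The gap between the pooled summits on either side of it was 11.9 kb, the widest in the locus, against a median gap of 1.28 kb. Of the 50-base sequences in the locus, 95.6% occur once in the genome, and all 7171 repeated ones lie in this element. Whether reads that map to several places account for the gap was not tested.

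The locus was set beside 2 other clusters of developmental genes delimited by the same rule. The Snail locus had 1.82 reproducible and 57.8 pooled summits per 100 kb. The Iroquois complex (ara, caup and mirr, homeodomain genes, 149.6 kb on 3L) had 9.36 and 102, and the bric-a-brac pair (bab1 and bab2, 160.9 kb on 3L) had 6.84 and 42.3. Past rank 5464 the Snail locus had 56 pooled summits per 100 kb, the Iroquois complex 92.3 and the bric-a-brac pair 35.4, so its density of weak summits lay between theirs while its density of reproducible ones was below both.

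Over the 95 pooled summits of the locus, CAGGTAG was within 150 bp of 5.26%, against 1.68% of all pooled summits, and CACGTG of 7.37%, against 3.98%. CAGGTG was near 14.7%, against 10.5%, and GCCAT near 54.7%, against 47.7%. GAGAG (34.7% against 37%), GTGTGT (21.1% against 25.6%) and TTTTTTTT (11.6% against 16.1%) were less frequent than over all pooled summits. For GAGAG alone the direction changed with the window. It was near 29.5%, against 25.8%, with 100 bp to each side, and near 58.9%, against 58.3%, with 300 bp. These shares have no test.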
